A study of Mus musculus with 10 samples.

Results

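The genes of the meiotic chromosome axis and of meiotic recombination were examined in whole testes of newborn mice that lack the RNA exosome ribonuclease DIS3 in their germ cells. Members were chosen by name, from knowledge of meiosis, and not by their values, but with earlier results of these data known. All 32 symbols were found among the 54232 annotated genes. They comprise 5 genes of the synaptonemal complex, 4 of the chromosome axis, 4 meiotic cohesin subunits, 4 genes of double-strand break formation, 6 of strand invasion and repair, 5 of crossover formation, 1 of telomere attachment, 2 regulators of meiotic entry and 1 gene of the intercellular bridge. RNA-seq was made from P4 testes (postnatal day 4) of mice labelled B6D2F1, with 5 control libraries (*Dis3* WT in the labels) and 5 *Dis3* cKO libraries (*Dis3* KO), each from the pooled testes of 1 mouse. In *Dis3* cKO mice a *Ddx4*-Cre transgene, active in germ cells, removes exons of the floxed *Dis3* allele over a null allele, so that somatic cells of the testis keep *Dis3* from the floxed allele, and controls were siblings of the same litters. Ribosomal RNA was depleted, so that non-polyadenylated RNA also entered the libraries.

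In meiotic prophase each chromosome is folded into loops on a protein axis of cohesin, SYCP2, SYCP3 and HORMA-domain proteins. SPO11 cuts DNA along this axis, the recombinase DMC1 helps to carry the cut ends into the homologous chromosome, and the synaptonemal complex zips the homologs together while some exchanges mature into crossovers. At P4 the mouse testis holds spermatogonia and gonocytes but no meiotic spermatocytes, and transcripts of many meiotic genes are nevertheless present, since spermatogonia make them ahead of meiosis. DIS3 degrades many RNAs in the nucleus, among them short antisense transcripts that start upstream of active promoters (PROMPTs, promoter upstream transcripts).

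Gene counts per library ran from 35391042 to 41104912 in control and from 28538849 to 37739906 in *Dis3* cKO. *Dis3* itself fell from a mean of 4596 to 1494 normalized counts (log2 fold change −1.62, SE 0.09, n = 5 and 5, edgeR adjusted p = 3.78e-07). Its counts cover all exons and somatic RNA, and do not isolate the deleted exons. A normalized count here is the read count of a gene divided by the library's TMM-scaled size and multiplied by the mean of these sizes. The germ cell marker *Ddx4* (2623 to 3134 normalized counts in the group means) and the Sertoli cell markers *Wt1* and *Sox9*, the Leydig cell gene *Cyp11a1*, the myoid gene *Acta2* and the endothelial gene *Pecam1* were all detected. Within both groups, replicates 1 to 3 stood apart from replicates 4 and 5, a split that the labels do not name, and the main results are therefore also given within these sets.

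Per length, the members spanned a wide range of levels. In control testes 15 members reached a mean of at least 10 TPM (a level corrected for gene length and library size), 14 lay between 1 and 10 TPM and 3 were under 1 TPM, against a median of 10.9 TPM over all genes tested. The highest was *Smc1b*, the meiotic form of the cohesin subunit SMC1, at 119 ± 12.8 TPM (SD, n = 5), followed by *Sycp1*, the transverse filament of the synaptonemal complex, at 62.2 ± 15.9 TPM and *Tex15*, needed for recombination and for transposon silencing, at 57.4 ± 4.5 TPM. The spreads of *Sycp1* and *Tex15* overlapped, so that their order is not resolved. At the other end stood the nuclease gene *Spo11* at 0.767 ± 0.393 TPM, the MutS homolog *Msh4* at 0.667 ± 0.150 TPM and *Meiob*, whose product binds single-stranded DNA, at 0.414 ± 0.183 TPM, again with overlapping spreads. Genes of break formation thus lay low, at 0.767 to 2.86 TPM, and the 5 synaptonemal complex genes high, at 29.6 to 62.2 TPM.

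**Figure D1:**
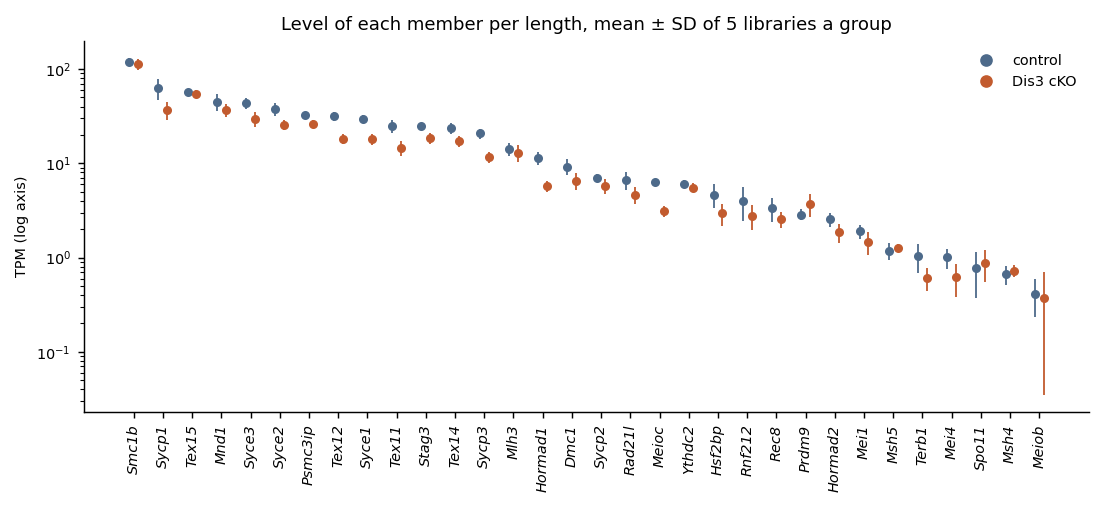
Mean level of each of the 32 members in TPM (log axis) in control and *Dis3* cKO testes, ordered by the control mean, with error bars of 1 SD over 5 libraries a group. Levels run from 119 TPM for *Smc1b* down to 0.414 TPM for *Meiob* in control, and the control means of *Hormad1*, *Meioc* and *Sycp3* lie above those of *Dis3* cKO by more than both error bars.

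Between the groups, 11 of the 31 members tested were called lower in *Dis3* cKO, none was called higher and 20 passed in neither direction (edgeR quasi-likelihood test, Benjamini-Hochberg adjusted p under 0.05). Over all 20043 genes tested 3.48% were called lower and 4.42% higher. At an unadjusted p under 0.05, 19 members were lower and 0 higher, against 2432 lower and 2361 higher of all 20043 genes. DESeq2 called 13 members lower and 0 higher, against 935 lower and 1306 higher of 45971 genes. The log2 fold change was below 0 for 27 of 31 members, against 52% of all genes, with a median of −0.45 and a range from −0.999 to 0.37. For 10 members the lowest control library exceeded the highest *Dis3* cKO library, a separation seen for 4.31% of all genes. *Meiob*, with 0 to 13 reads per library, did not pass the filter on low counts. *Sycp3*, *Hormad1* and, among the other genes below, *Stra8*, *Mael*, *Sohlh1* and *Rhox10* are genes that the study singled out from these libraries, so their direction here is not independent evidence. The study also reported all of them lower by qRT-PCR.

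**Figure D2:**
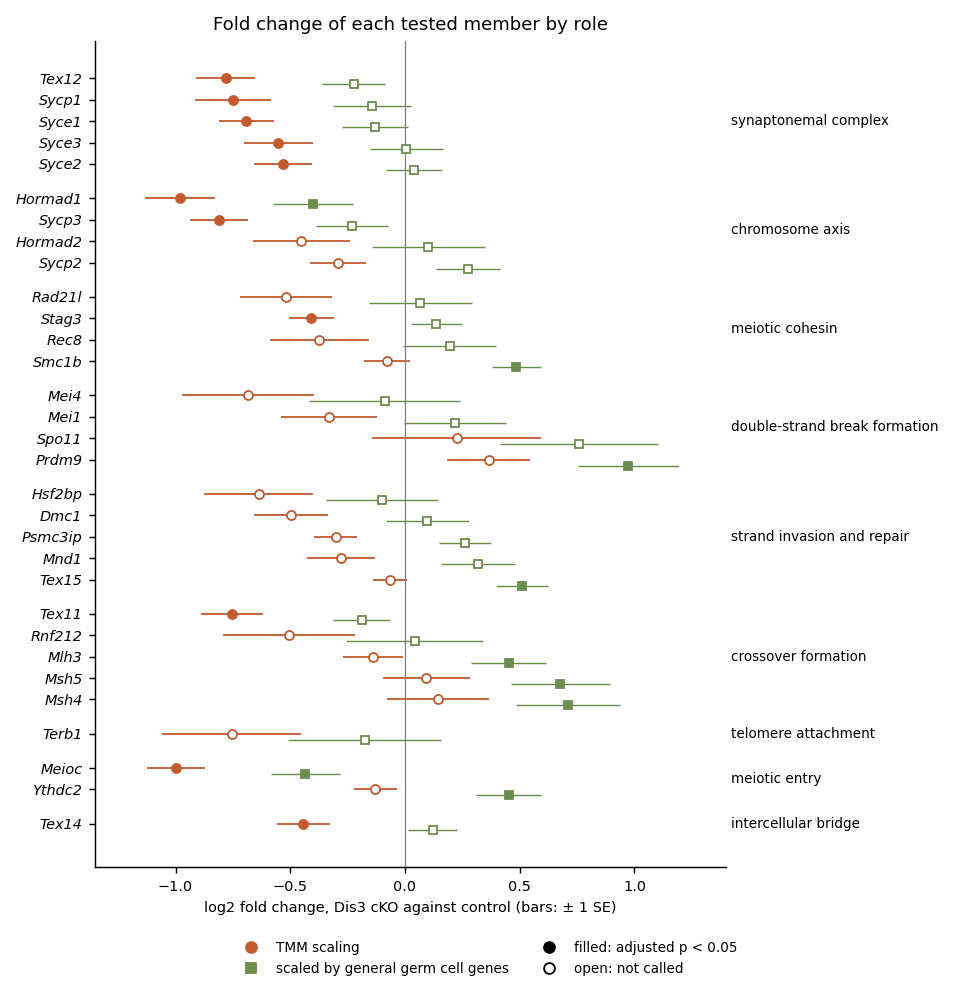
Log2 fold change (*Dis3* cKO against control, bars ± 1 SE, 5 libraries a group) of the 31 tested members, arranged by role. Circles use TMM scaling and squares use the summed general germ cell genes as the scale, with filled symbols for an adjusted p under 0.05. On TMM scaling 11 circles are filled and all of them lie below 0, whereas on germ cell scaling 2 filled squares lie below 0 and 7 above.

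The synaptonemal complex genes fell together. All 5, which code for the transverse filament (*Sycp1*) and the central element (*Syce1*, *Syce2*, *Syce3* and *Tex12*), were called lower, with a median log2 fold change of −0.69 and no overlap between the groups. *Sycp1*, on chromosome 3 at 102818499 to 102936100 (GRCm38, minus strand), stood at 1909.5, 1836, 1792, 3014 and 2839 normalized counts in control replicates 1 to 5. In *Dis3* cKO it stood at 1402, 1118, 1086, 1701 and 1472 (log2 fold change −0.75, SE 0.17, adjusted p = 0.0153). In both groups replicates 4 and 5 were the highest, and the highest *Dis3* cKO library stayed under the lowest control library.

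*Tex12* had the largest fall of the 5, from 267 to 368 normalized counts in control to 164 to 226 in *Dis3* cKO (log2 fold change −0.78, SE 0.13, adjusted p = 0.00326). *Syce1*, on chromosome 7 at 140777229 to 140787852, counted 378, 407, 469, 482 and 485 in control and 336, 281, 245, 233 and 282 in *Dis3* cKO (log2 fold change −0.69, SE 0.12, adjusted p = 0.00435). The other two central element genes fell less. *Syce2* went from a mean of 761 ± 128 to 527 ± 73.1 normalized counts (log2 fold change −0.53, adjusted p = 0.0215) and *Syce3* from 247 ± 35.9 to 169 ± 32.5 (log2 fold change −0.55, adjusted p = 0.0397; SD, n = 5 a group).

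**Figure D3:**
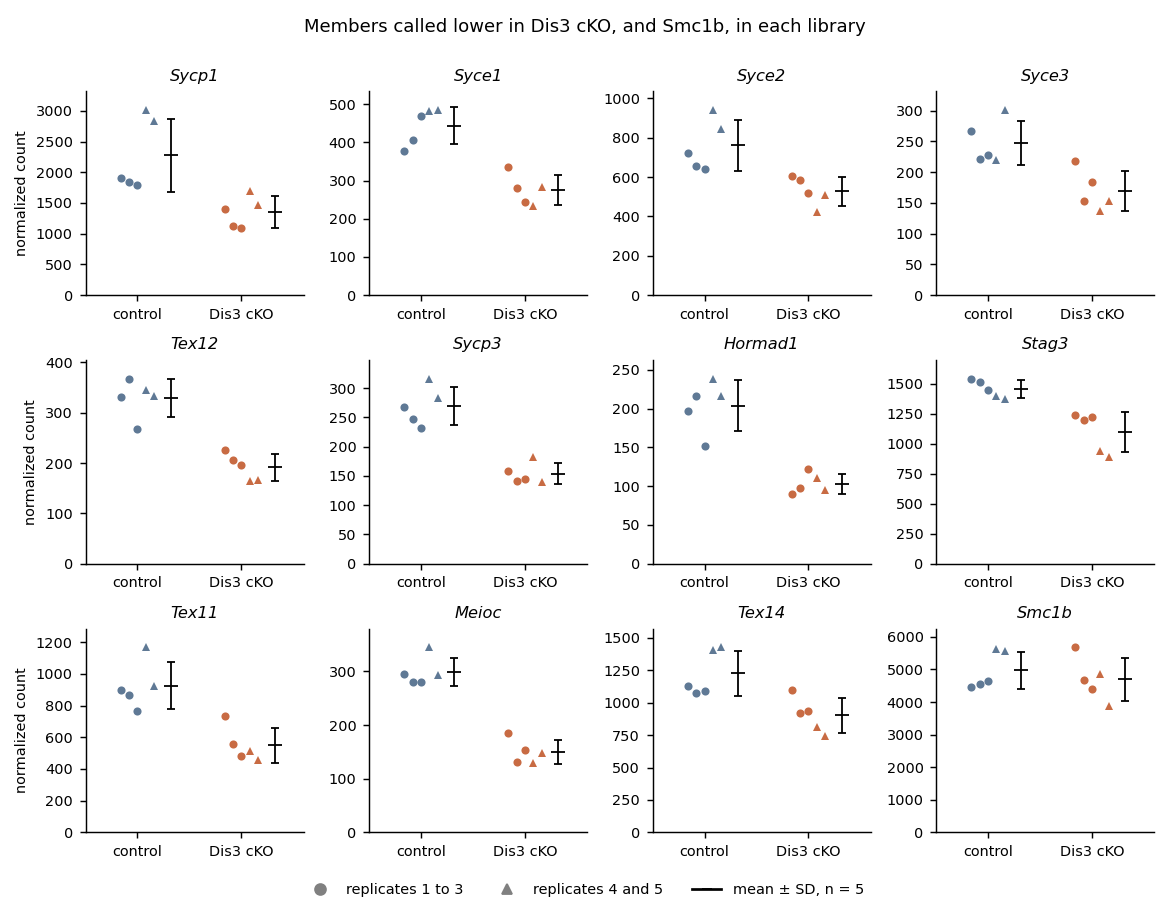
Normalized counts in each library for the 11 members called lower and for *Smc1b*, the highest member, which was not called; circles are replicates 1 to 3, triangles replicates 4 and 5, and the bar is the mean ± SD of 5 libraries. Control and *Dis3* cKO points do not overlap in 10 of the 11 called genes, overlap in *Tex14*, and are intermixed in *Smc1b*.

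Of the 4 axis genes, 2 fell and 2 did not pass. *Hormad1*, whose HORMA-domain protein coats unsynapsed axes, is on chromosome 3 at 95559677 to 95587671 and counted 197, 216, 152, 239 and 216 in control against 90.1, 97.8, 122, 111 and 95.1 in *Dis3* cKO. By the fitted fold it fell by 49.3% (log2 fold change −0.98, SE 0.15, adjusted p = 0.00267). *Sycp3*, the lateral element protein that cores the axis, on chromosome 10 at 88459569 to 88473236, counted 268, 247, 232, 316 and 284 in control. In *Dis3* cKO it counted 159, 141, 144, 183 and 140.4 (log2 fold change −0.81, SE 0.13, adjusted p = 0.00292). *Sycp2*, whose product pairs with SYCP3, and *Hormad2* gave log2 fold changes of −0.29 and −0.45 (adjusted p = 0.158 and 0.208), both with overlapping groups.

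The sequences just before these genes are shown because several of the genes that fell carry the same short word there. Promoter windows from RefSeq (GRCm38.p6, the 250 bases before the start) were found for 27 of the 32 members, and *Spo11*, *Meiob*, *Tex15*, *Tex11* and *Ythdc2* had no entry. Each window was searched for CACGTG, an E-box that reads the same on both strands, and for GCGGGA or its reverse complement TCCCGC, the word bound by E2F6. The protein pair MGA and MAX binds such E-boxes and, with E2F6, belongs to a Polycomb complex known to keep meiotic genes silent. In the windows below, given 5′ to 3′ on the strand of the gene, capitals mark these words. *Hormad1* is chr3:95559427-95559676 (plus strand), *Sycp3* chr10:88459337-88459586 (plus), of which 18 bases lie inside the annotated gene, *Sycp1* chr3:102936101-102936350 (minus) and *Dmc1* chr15:79605110-79605359 (minus).
Hormad1: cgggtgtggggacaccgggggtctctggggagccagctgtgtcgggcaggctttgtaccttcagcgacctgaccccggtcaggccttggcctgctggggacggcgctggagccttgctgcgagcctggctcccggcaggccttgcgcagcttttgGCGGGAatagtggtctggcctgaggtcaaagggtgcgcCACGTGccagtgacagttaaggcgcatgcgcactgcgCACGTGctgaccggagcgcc
Sycp3: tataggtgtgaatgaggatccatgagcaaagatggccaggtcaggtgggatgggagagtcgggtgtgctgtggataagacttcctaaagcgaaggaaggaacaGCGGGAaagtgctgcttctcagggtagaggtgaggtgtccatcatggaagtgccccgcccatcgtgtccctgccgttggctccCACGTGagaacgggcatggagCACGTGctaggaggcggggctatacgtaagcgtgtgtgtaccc
Sycp1: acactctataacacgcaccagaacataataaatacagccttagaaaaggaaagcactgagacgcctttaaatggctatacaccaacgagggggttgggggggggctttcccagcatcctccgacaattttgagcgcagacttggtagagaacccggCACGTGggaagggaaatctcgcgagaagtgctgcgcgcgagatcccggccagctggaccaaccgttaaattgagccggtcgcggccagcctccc
Dmc1: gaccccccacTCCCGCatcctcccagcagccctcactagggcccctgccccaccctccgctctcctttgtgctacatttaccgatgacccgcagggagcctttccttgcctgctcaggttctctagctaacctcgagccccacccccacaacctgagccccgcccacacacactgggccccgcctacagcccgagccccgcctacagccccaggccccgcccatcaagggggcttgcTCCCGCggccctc

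*Hormad1* and *Sycp3* each hold 2 E-boxes and 1 GCGGGA, *Sycp1* holds 1 E-box, and *Dmc1* holds 2 copies of TCCCGC and no E-box. In *Hormad1* the E-boxes begin 57 and 20 bases before the start, in *Sycp3* 64 and 43 and in *Sycp1* 94. The E-box was present in 5 of 27 member windows (18.5%), against 6.71% of 19213 promoters and 8.02% of promoters of tested genes. Besides the 3 genes shown these were *Tex12* and *Stag3*, whose windows lie partly or wholly inside the annotated gene and are not shown. All 5 belong to the 10 members with a window that were called lower, and 0 of the 17 other windows held the word. The word holds a CG, and windows differed in their number of CG. The median was 17 in the called members, 12 in the others and 15 in promoters of tested genes. The windows of *Meioc*, among the 10, and of *Mei1*, *Msh4*, *Rec8* and *Msh5*, among the 17, also reach into the annotated gene. They do so by 123 (*Msh5*) to 12480 bases (*Mei1*), and so miss some or all of the bases just before it. The E2F6 word was more evenly spread, in 6 of 10 called members and 9 of 17 others. It was present in 21.2% of all promoters and in 29.2% of promoters of tested genes. These are matches of letters, described without a test, and the split by called genes was made after their values were seen.

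Among the meiotic cohesin subunits, *Stag3* fell and the 3 others did not pass. *Stag3*, the stromal antigen subunit of meiotic cohesin, counted 1543, 1517, 1451, 1396 and 1375 in control and 1239, 1201, 1219.8, 938 and 888 in *Dis3* cKO (log2 fold change −0.41, SE 0.10, adjusted p = 0.0227). *Smc1b*, at 4473, 4557, 4641, 5616 and 5558 in control and 5682, 4688, 4415, 4859.6 and 3881 in *Dis3* cKO, gave a log2 fold change of −0.08 (SE 0.10, adjusted p = 0.695), and its groups were intermixed. The kleisins *Rec8* (−0.37, SE 0.22, adjusted p = 0.317) and *Rad21l* (−0.52, SE 0.20, adjusted p = 0.131) were at far lower counts, with group means between 77.6 and 114 normalized counts, and overlapped. In replicates 4 and 5 alone *Smc1b* (−0.35, adjusted p = 0.00366) and *Rec8* (−0.97, adjusted p = 0.0156) were called lower, and in replicates 1 to 3 neither was.

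None of the 4 genes of double-strand break formation passed the test. *Prdm9*, the histone methyltransferase that places the cuts, had the highest log2 fold change of all members, 0.37 (SE 0.18, adjusted p = 0.238), at 116, 130.1, 104, 131 and 153 normalized counts in control and 139, 125, 136, 202 and 215 in *Dis3* cKO. Its 2 highest libraries were *Dis3* cKO replicates 4 and 5. *Spo11* ranged from 16.5 to 57.5 in control and from 19.3 to 49.4 in *Dis3* cKO (log2 fold change 0.23, SE 0.37). *Mei1* (−0.33, SE 0.21) and *Mei4* (−0.68, SE 0.29), which are needed for SPO11 activity, overlapped between the groups, and with standard errors of this size changes of their magnitude were not resolved.

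The 5 tested genes of strand invasion and repair were all below 0, and none passed in the main edgeR fit. DESeq2, also without further terms, called *Dmc1* and *Psmc3ip* lower (adjusted p = 0.0451 for each). *Dmc1*, the meiotic recombinase on chromosome 15 at 79561497 to 79605109, counted 194, 234, 179, 279.9 and 272 in control and 149, 152, 149.8, 215 and 155 in *Dis3* cKO (log2 fold change −0.50, SE 0.16, adjusted p = 0.0758). Replicate 4 of *Dis3* cKO was the only library of its group inside the control range. *Psmc3ip* and *Mnd1*, which form an accessory complex of DMC1, gave −0.30 (adjusted p = 0.0607) and −0.28 (adjusted p = 0.273), and *Hsf2bp*, which brings BRCA2 to meiotic breaks, −0.64 (adjusted p = 0.115). *Tex15* had the highest counts of all members and the log2 fold change nearest to 0, at 5272 to 6302 in control and 4979.9 to 5895 in *Dis3* cKO (log2 fold change −0.07, SE 0.07, adjusted p = 0.650). With the set of libraries (replicates 1 to 3, or 4 and 5) as a term in the fit, *Dmc1* (adjusted p = 0.0148), *Psmc3ip* (0.0283) and *Hsf2bp* (0.0278) were called lower as well, 14 members in all. Over all genes that fit called 1669 of 20043 lower. Over replicates 4 and 5 alone *Dmc1* (adjusted p = 0.0359) and *Psmc3ip* (0.00324) were called lower, and over replicates 1 to 3 alone *Hsf2bp* (0.0494).

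Only *Tex11* fell among the 5 crossover genes tested here. *Tex11*, an X-linked gene whose product promotes synapsis and crossovers, counted 896, 869, 769, 1168 and 926 in control and 733, 559, 482, 515 and 457 in *Dis3* cKO (log2 fold change −0.75, SE 0.14, adjusted p = 0.00551). The MutS homologs *Msh4* (0.14, SE 0.22) and *Msh5* (0.09, SE 0.19), the MutL homolog *Mlh3* (−0.14, SE 0.13) and the crossover factor *Rnf212* (−0.51, SE 0.29) did not pass, with adjusted p from 0.314 to 0.820. *Terb1*, which ties telomeres to the nuclear envelope, had a log2 fold change of −0.75 with an SE of 0.30 and did not pass (adjusted p = 0.144) at means of 39.9 and 23.7 normalized counts.

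The largest fall of all 31 was that of *Meioc*. *Meioc* and *Ythdc2* code for partners in an RNA-binding complex that lets germ cells leave the mitotic program. *Meioc*, on chromosome 11 at 102663716 to 102682237, counted 294, 280.0, 280.5, 345 and 294 in control and 185, 132, 154, 129.6 and 147 in *Dis3* cKO (log2 fold change −0.999, SE 0.13, adjusted p = 0.000805), with no overlap. *Ythdc2* gave a log2 fold change of −0.13 (SE 0.09, adjusted p = 0.444) and overlapped. *Tex14*, which keeps the bridges between sister germ cells open, counted 1128, 1075, 1090.0, 1408 and 1427 in control and 1097, 920.1, 934, 813 and 745 in *Dis3* cKO. It was called lower (log2 fold change −0.44, SE 0.12, adjusted p = 0.0334) although replicate 1 of *Dis3* cKO lay within the control range.

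Leaving out each of the 10 libraries in turn kept the call in every fit for *Sycp1*, *Syce1*, *Tex12*, *Sycp3*, *Hormad1*, *Tex11* and *Meioc*, 7 of the 11. *Stag3* lost its call without control replicate 1 (adjusted p = 0.0612), control replicate 2 (0.0595) or *Dis3* cKO replicate 5 (0.0512), and *Syce2* without control replicate 4 (0.0512), control replicate 5 (0.0536) or *Dis3* cKO replicate 5 (0.0522). *Syce3* lost its call in 8 of the 10 fits and kept it only without control replicate 3 or *Dis3* cKO replicate 1, with adjusted p up to 0.100. *Tex14* lost its call in 7 of the 10 and kept it only without control replicate 2, control replicate 3 or *Dis3* cKO replicate 1, with adjusted p up to 0.0838. Without *Dis3* cKO replicate 5 the number of members called lower was 7 instead of 11. Over all genes that fit called 366 lower instead of 698.

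General germ cell genes were lower in the same libraries. Of 12 genes listed as general germ cell genes, 8 were called lower and 0 higher, with a median log2 fold change of −0.55. Among them were *Dazl* (−0.67), the piRNA pathway genes *Mael* (−0.76), *Asz1* (−0.64), *Gtsf1* (−0.66) and *Mov10l1* (−0.47) and the Tudor-domain gene *Rnf17* (−0.63). Whether the 12 keep an even level across germ cell stages was not tested. Their summed normalized counts ran from 22092 to 27740.2 in control and from 14783 to 19109 in *Dis3* cKO, without overlap. *Ddx4* was not called (−0.26, SE 0.15, adjusted p = 0.323), and the promoter of this gene drives the Cre. Over replicates 1 to 3 alone 6 of the 12 were called lower (median −0.42, *Ddx4* at 0.16) and over replicates 4 and 5 alone 11 (median −0.79, *Ddx4* at −0.84). In bulk RNA, fewer germ cells and less RNA per germ cell cannot be told apart. Of 10 genes of undifferentiated spermatogonia 0 were called in either direction over all libraries (median −0.10), but the sets of libraries went opposite ways. Their summed normalized counts were 10132 to 10284 in control and 11178 to 11546 in *Dis3* cKO replicates 1 to 3 (1 gene called higher, 0 lower), against 9263 and 9564 in control and 7630.0 and 7964 in *Dis3* cKO replicates 4 and 5 (3 called lower, 0 higher). Of 6 tested genes of differentiating spermatogonia 4 were called lower, the transcription factors *Sohlh1* (−1.20), *Sohlh2* (−0.68) and *Dmrtb1* (−1.17) and the homeobox gene *Rhox10* (−0.91). The 2 that were not, named after their values were seen, were the receptor gene *Kit* (−0.08, adjusted p = 0.683) and *Ly6k* (0.11, adjusted p = 0.885).

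Over all 10 libraries few somatic markers were called. The 9 Sertoli cell genes had a median log2 fold change of 0.12 with 0 called, the 5 stromal genes 0.27 with 0 called and the 4 macrophage genes 0.13 with 0 called. Of 6 Leydig cell genes *Cyp17a1* was called lower (−0.40), of 5 myoid genes *Myh11* was called higher (0.52) and of 4 endothelial genes *Cdh5* was called higher (0.31). Over replicates 4 and 5 alone, 4 of 5 stromal, 4 of 5 myoid and 3 of 4 endothelial genes were called higher and 0 lower, whereas over replicates 1 to 3 alone 2 myoid genes were called lower and 0 genes of these lists higher. The part of these shifts in the fall of the meiotic genes was not tested.

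To express the members relative to the listed germ cell genes, each library was scaled by its summed counts of the 12 general germ cell genes. On that scale the 12 reference genes themselves ran from −0.21 (*Mael*) to 0.47 (*Piwil4*), and *Piwil4* (adjusted p = 0.0423) and *Ddx4* (0.31, adjusted p = 0.0248) were called higher. The median of all 20043 genes stood at 0.55, 65.7% of all genes were called higher and 0.239% lower, and the median of the members was 0.10. Of the 31 members 2 were called lower, 7 higher and 22 neither. *Meioc* (log2 fold change −0.43, SE 0.15, adjusted p = 0.0175) and *Hormad1* (−0.40, SE 0.17, adjusted p = 0.0485) thus fell further than the summed germ cell genes, below the lowest of the 12. Over replicates 1 to 3 alone *Meioc* kept its call, and over replicates 4 and 5 alone neither passed. The call of *Hormad1* was lost when any of control replicates 1, 2, 4 or 5 or *Dis3* cKO replicates 1, 2 or 5 was left out, with adjusted p up to 0.111.

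The 5 synaptonemal complex genes lay near the summed germ cell genes, between −0.22 (*Tex12*) and 0.04 (*Syce2*), and none of them passed on this scale. The 7 members called higher were *Prdm9* (0.97, SE 0.22), *Msh4* (0.71, SE 0.23), *Msh5* (0.68, SE 0.22), *Tex15* (0.51, SE 0.11), *Smc1b* (0.49, SE 0.11), *Ythdc2* (0.45, SE 0.14) and *Mlh3* (0.45, SE 0.16), with adjusted p from 0.000966 for *Smc1b* to 0.0220 for *Mlh3*. Set against the median of 0.55 over all genes on this scale, *Prdm9*, *Msh4* and *Msh5* lie above it and the other 4 below it. On TMM scaling none of these 7 was called, with adjusted p of 0.238 for *Prdm9*, 0.751 for *Msh4* and 0.820 for *Msh5*. The call of *Mlh3* was lost without control replicate 1 or 2 or without *Dis3* cKO replicate 4 or 5, with adjusted p up to 0.0907.

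Other genes of meiosis outside the 32 gave a like count. Of 28 tested of 30 such genes, 10 were called lower and 0 higher, with a median log2 fold change of −0.41. They include *Stra8*, the retinoic acid target that opens the meiotic program (936 to 505 normalized counts, log2 fold change −0.89, SE 0.13, adjusted p = 0.00192), and *Rec114*, a partner of MEI4 in break formation (−0.80, adjusted p = 0.00365). *Rbm46*, an RNA-binding protein gene, had −0.60, *Zcwpw1*, a reader of the marks set by PRDM9, −0.49, *Brdt*, a testis bromodomain gene, −0.70, and *M1ap* −0.91. A list of 15 mitotic counterparts holds genes that somatic cells also express, such as the cohesin genes *Smc1a*, *Smc3*, *Rad21*, *Stag1* and *Stag2*. Over all 10 libraries, by contrast, 1 of the counterparts was called lower and 0 higher, with a median of −0.06. That gene was *Rpa2*, a subunit of the single-stranded DNA binding complex (−0.40, SE 0.10, adjusted p = 0.0270). Over replicates 1 to 3 alone 9 of the other meiotic genes and 0 of the counterparts were called lower, where 2.74% of all genes were. Over replicates 4 and 5 alone the numbers were 12 and 6, where 11.7% of all genes were called lower. The medians there were −0.47 and −0.13, and 13 of the 15 counterparts lay below 0. In each set 1 counterpart was called higher.

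The members were also compared within each set of libraries. Over replicates 1 to 3 alone, 9 members were called lower and 0 higher with a median log2 fold change of −0.30, where 2.74% of all genes were called lower and 4.8% higher. Over replicates 4 and 5 alone, 15 were called lower and 0 higher with a median of −0.57, where 11.7% of all genes were called in each direction. In both sets 25 members lay below 0, and 8 were called lower in both, namely *Sycp1*, *Syce1*, *Tex12*, *Sycp3*, *Hormad1*, *Stag3*, *Tex11* and *Meioc*. A test of the difference itself, the interaction of group and set, passed for 2 of 31 members, *Syce2* and *Tex14*, a share near the 4.58% of all genes, and for none of the 8 called in both sets. *Syce2* fell by 0.24 on the log2 scale in replicates 1 to 3 and by 0.94 in replicates 4 and 5 (difference −0.70, SE 0.16, adjusted p = 0.0167). *Tex14* fell by 0.16 and by 0.86 (difference −0.70, SE 0.13, adjusted p = 0.00380).

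**Figure D4:**
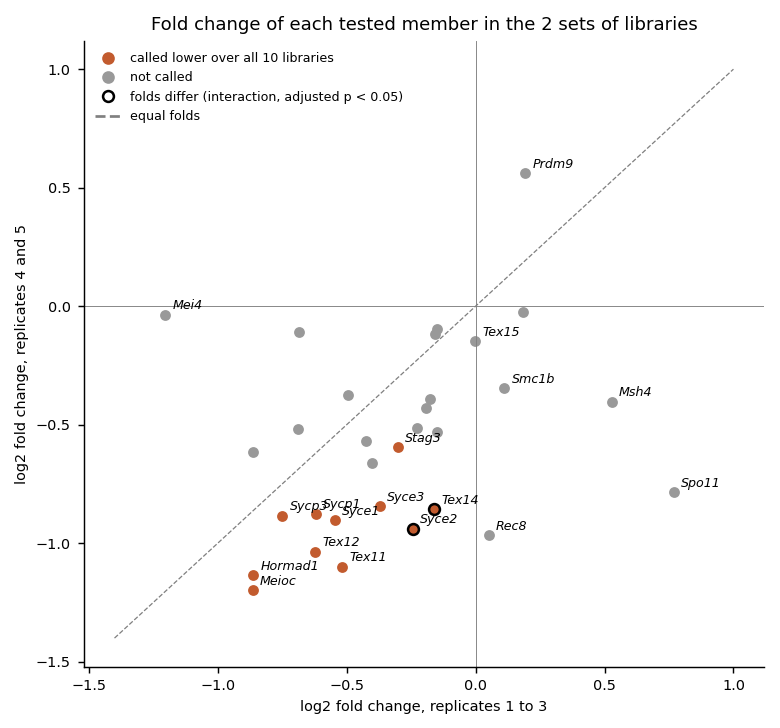
Log2 fold change (*Dis3* cKO against control) of the 31 tested members over replicates 1 to 3 (horizontal) and over replicates 4 and 5 (vertical). Orange points are the 11 members called lower over all libraries, black rings mark *Syce2* and *Tex14*, whose folds differed between the sets, and the dashed line is equal folds. The orange points lie below 0 on both axes, and all of them lie below the dashed line.

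Summed marker counts differed with these sets. Summed counts of the 5 stromal genes were 228142 to 250678 in control replicates 1 to 3 and 180593 to 235052 in *Dis3* cKO replicates 1 to 3, but 153233 and 153750 in control replicates 4 and 5 against 346510 and 354879 in *Dis3* cKO replicates 4 and 5. Most of this sum is counts of the collagen genes *Col1a1* and *Col1a2*, which were lower in control replicates 4 and 5 than in control replicates 1 to 3. *Pdgfra* went the other way among the controls, at 16738 to 19737 normalized counts in replicates 1 to 3 and 21716 and 22116 in replicates 4 and 5, and so did *Dcn*. The summed general germ cell genes were 27740.2 and 27514 in control replicates 4 and 5 against 15724 and 14783 in *Dis3* cKO, a wider gap than in replicates 1 to 3 (22092 to 25426 against 18185 to 19109). Their part in the larger folds of replicates 4 and 5 was not tested. *Smc1b*, *Rec8*, *Spo11*, *Msh4* and *Msh5* changed sign between the sets, *Smc1b* from 0.11 in replicates 1 to 3 to −0.35 in replicates 4 and 5 and *Rec8* from 0.05 to −0.97, and for none of them did the interaction pass.

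A second table of the same libraries counts reads that lie on the opposite strand within 3000 bases upstream of a gene, where PROMPTs arise. Summed over all regions these counts were 116141 to 176069 in control and 179199 to 256460 in *Dis3* cKO, without overlap, while gene counts were lower in *Dis3* cKO (exact permutation test of the means, two-sided, p = 0.00794 for the upstream counts, the smallest this design allows, and p = 0.0397 for gene counts). Such a region was present for 16 of the 32 members, and 12 of them averaged 3 counts or more over the libraries and were tested, with library sizes taken from the gene counts. The regions of *Rec8*, *Mei1*, *Mnd1* and *Meioc* fell under this minimum. Of the 12, 5 were called higher in *Dis3* cKO and 0 lower, where 13.6% of 12345 regions were called higher and 0.0486% lower. The minimum was taken over all 10 libraries, and 6 of the 12 (*Meiob*, *Hormad1*, *Hormad2*, *Sycp2*, *Syce3* and *Tex15*) averaged under 3 raw counts in control and reached it only through the *Dis3* cKO libraries, so that counts over the tested regions are a description. Of these 6 only *Meiob* was called.

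*Spo11* and *Meiob*, among the least abundant members, both had antisense counts upstream that rose. Upstream of *Meiob*, on chromosome 17 at 24801289 to 24804288, normalized antisense counts were 0, 2.83, 0.840, 1.92 and 1.84 in control and 54.3, 19.0, 27.95, 7.75 and 15.9 in *Dis3* cKO (log2 fold change 3.97, SE 0.66, adjusted p = 9.91e-08). Upstream of *Spo11*, on chromosome 2 at 172974700 to 172977699, they were 3.73, 3.77, 8.40, 3.83 and 0 in control and 65.4, 47.5, 42.5, 22.2 and 17.0 in *Dis3* cKO (log2 fold change 3.24, SE 0.49, adjusted p = 2.38e-09). In both regions the *Dis3* cKO libraries all exceeded the control libraries. Both were picked by a call on these same libraries, so this separation is a description. It is not set against the 11.1% of all regions that show it. In *Spo11* replicates 4 and 5 of *Dis3* cKO were the lowest of their group. The count of 0 in a control library allows up to 3 reads, so these folds rest on few reads in control, a mean of 1.6 raw counts for *Meiob* and 4.4 for *Spo11*.

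Upstream of *Sycp1*, in the 3000 bases that begin with the window printed above, antisense counts were 17.7, 18.9, 31.1, 14.4 and 11.03 in control and 111, 45.6, 89.4, 66.5 and 62.3 in *Dis3* cKO (log2 fold change 1.99, SE 0.33, adjusted p = 6.91e-08), without overlap. The *Sycp1* gene itself fell by 0.75 on the log2 scale in the same libraries. Upstream of *Syce1* they were 4.66, 16.02, 8.40, 5.75 and 8.27 in control and 32.1, 17.1, 23.5, 34.3 and 18.1 in *Dis3* cKO (log2 fold change 1.52, SE 0.49, adjusted p = 0.0178), also without overlap and also beside a gene that fell. The call of the *Syce1* region was lost without control replicate 1, *Dis3* cKO replicate 1 or *Dis3* cKO replicate 4, with adjusted p up to 0.0650.

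Upstream of *Dmc1*, the window printed above included, they were 23.3, 8.48, 8.40, 5.75 and 9.19 in control and 53.1, 24.7, 20.1, 49.8 and 21.5 in *Dis3* cKO (log2 fold change 1.604, SE 0.43, adjusted p = 0.00255), and control replicate 1 lay within the *Dis3* cKO range. For these 5 regions the nearest annotated gene on the counted strand was 2852 bases away for *Syce1* and 34379 to 55033 bases away for the other 4, so that none overlaps the region. The gene counts of *Spo11* and *Meiob* gave no call, with *Meiob* untested. Over replicates 1 to 3 alone the regions of *Sycp1*, *Spo11* and *Meiob* were called higher, 3 of the 5. Over replicates 4 and 5 alone only that of *Sycp1* was (log2 fold change 2.34, adjusted p = 0.00268). The shares over all regions tested were 10.8% and 3.85%. These 5 regions were picked by a call that used the same libraries, so their counts are a description and not set against those shares. The log2 fold changes of the other 4 in replicates 4 and 5 were 3.29 for *Spo11*, 2.24 for *Dmc1*, 1.89 for *Syce1* and 2.58 for *Meiob*, with adjusted p from 0.0575 to 0.332, and those of *Syce1* and *Dmc1* in replicates 1 to 3 were 1.31 and 1.27 (adjusted p = 0.142 and 0.0719). The 7 tested regions without a call, those of *Syce3*, *Sycp2*, *Hormad1*, *Hormad2*, *Rad21l*, *Mei4* and *Tex15*, had log2 fold changes from 0.95 to 2.18 at control means of 4.93 normalized counts or fewer. *Hormad1* had the highest of these, from 2.18 ± 2.83 to 10.4 ± 4.48 normalized antisense counts (adjusted p = 0.0890), and it passed without control replicate 2 (adjusted p = 0.0271) or with the set of libraries as a term (adjusted p = 0.0486).

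**Figure D5:**
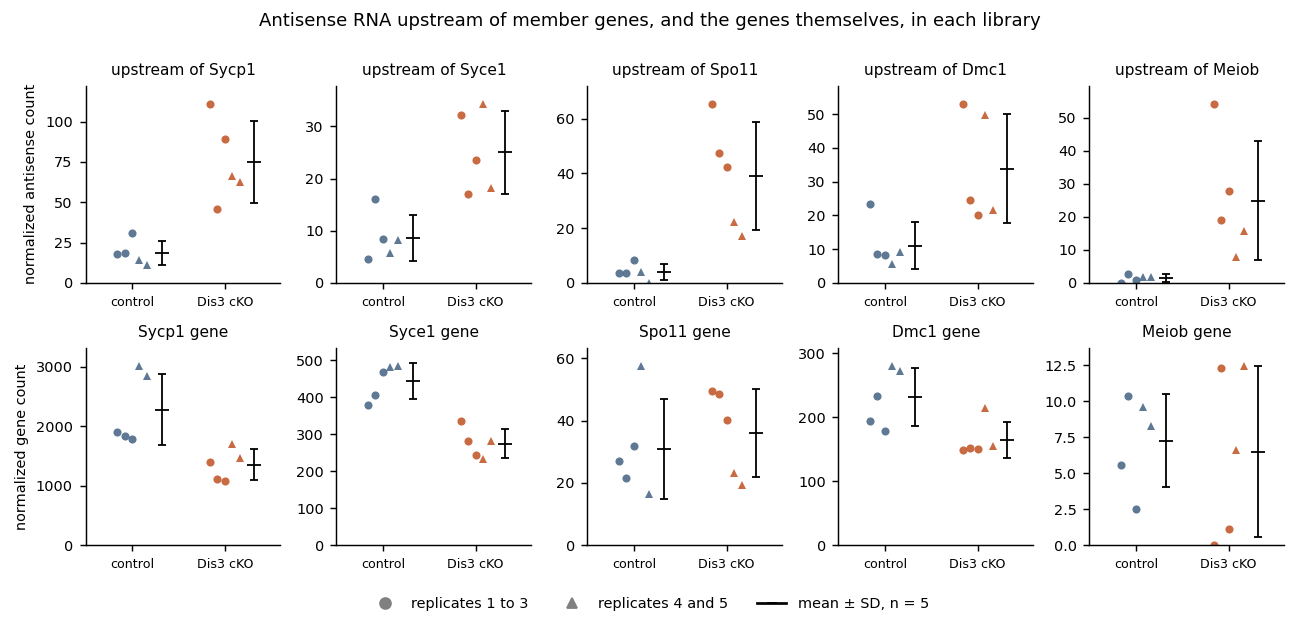
Normalized antisense counts in the 3000 bases upstream (top) and normalized gene counts (bottom) in each library for the 5 members whose upstream region was called higher; circles are replicates 1 to 3, triangles replicates 4 and 5, bars the mean ± SD of 5 libraries. Upstream counts are higher in *Dis3* cKO in all 5, with an overlap for *Dmc1*, whereas the gene counts below them are lower for *Sycp1* and *Syce1* and overlap for *Spo11*, *Dmc1* and *Meiob*.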

How the data were processed

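RNA-seq of P4 testes gave 5 control and 5 *Dis3* cKO libraries. The deposited tables hold the authors' raw counts, that is, whole numbers of reads in sense over the exons of a gene, or antisense over its 3000-base upstream region. They had used cutadapt for trimming, HISAT2 for alignment and featureCounts for counting (1.6.4 in the file headers, which name GENCODE M18; the processing notes name GRCm38.p5 and the methods a later release). The header of the gene table repeats KO4 and WT4, and each has 1 column. Symbols came from GENCODE M39 through the gene IDs (50129 of 54232 genes, 99.0% of counts).

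Genes passing edgeR's filterByExpr (min.count 10, min.total.count 15) were TMM-normalized and tested with edgeR 4.0.16 (quasi-likelihood, two-sided, no covariate, R 4.3.3), with Benjamini-Hochberg adjustment over all genes tested and a threshold of 0.05. Upstream regions averaging 3 counts or more were tested likewise, scaled by the gene counts. A further fit scaled libraries by 12 general germ cell genes. TPM was computed from counts and exon length. DESeq2 1.42.0, a term for the sets of libraries and fits within each set were among the alternatives, and the procedure was tested on simulated data. There edgeR called 25.4% of genes changed by 0.5 on the log2 scale and 61.2% of those changed by 1, with 5.43% of calls false. Of upstream regions changed by 2 it called 19.7%. DESeq2 had 17.0% of its gene calls false. The simulated libraries formed no sets and held few changed genes, so rates in the real libraries may differ. A gene or region without a call may thus still have changed.

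Members and lists were chosen with earlier results of these data known. All members are named, with up to 6 called genes per other list. *Ccdc36*, *Spo16* and *Six6os1* found no match by these names, and 1 gene of the other lists is not reported here. Promoter sequences are RefSeq's (GRCm38.p6). At 28538849 to 41104912 gene counts per library, counts are lowest, and precision least, for *Meiob*, *Spo11* and the upstream regions. Replicates are mice, and no pair of libraries of a group agreed within sampling noise.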

Additional observations from a re-analysis of the deposited data

Results flagged for a closer look

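In 5 of 96 groups of 5 libraries, 1 library stood far from the other four by Dixon's test at the 95% level, where chance flags about 1 in 20. Among gene counts, *Dis3* cKO replicate 4 was high for *Dmc1* (215 normalized counts, the others 149 to 155) and control replicate 4 was high for *Meioc* (345, the others 280.0 to 294). Without *Dis3* cKO replicate 4 the log2 fold change of *Dmc1* was −0.61 and passed the test (adjusted p = 0.0357), and *Meioc* was called lower with any library left out.

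Among upstream antisense counts, control replicate 1 was high for *Dmc1* (23.3 normalized counts, the others 5.75 to 9.19) and for *Meioc* (5.59, the others 0.959 or fewer, a region under the count minimum), and *Dis3* cKO replicate 1 was high for *Tex15* (23.5, the others 2.22 to 4.47). The last is the library with the fewest gene counts, 28538849, and the most upstream counts, 256460. The part of its depth in that value was not tested.

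The fall of *Syce2* and of *Tex14* was larger in replicates 4 and 5 than in replicates 1 to 3, by −0.70 on the log2 scale for each (edgeR interaction test, adjusted p = 0.0167 and 0.00380). The summed stromal and general germ cell marker counts differed with the same sets of libraries, and their part was not tested.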

How the results depend on the processing

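The number of members called lower (11) was 7 to 12 with a library left out, the lowest without *Dis3* cKO replicate 5, and 9 to 15 under the other alternatives, with 0 called higher throughout. Relative to the general germ cell genes, the number called lower (2) was 0 without a filter on low counts, 1 with a replicate block, 1 in replicates 1 to 3, 0 in replicates 4 and 5, 1 with *Ddx4* and *Dazl* alone as the scale and 1 to 2 with a library left out, and the number called higher (7) was 5 to 10. Upstream regions called higher (5) were 3 in replicates 1 to 3, 1 in replicates 4 and 5 and 4 to 6 with a library left out. Without the filter the germ cell scaled calls of *Meioc* (adjusted p = 0.0699), *Hormad1* (0.145) and *Msh4* (0.0595) were lost. The cause of these changes was not tested.

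Directions turned for members that were not called. In replicates 4 and 5 the log2 fold change was −0.79 for *Spo11*, −0.40 for *Msh4* and −0.024 for *Msh5*, and in replicates 1 to 3 it was 0.051 for *Rec8* and 0.11 for *Smc1b*. Relative to germ cell genes, *Syce2* was −0.084 in replicates 4 and 5 and between −0.0038 and 0.092 with a library left out, and *Syce3* was −0.0014 in replicates 1 to 3, −0.034 against *Ddx4* and *Dazl* and between −0.061 and 0.058 with a library left out.

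Same-numbered libraries of the 2 groups deviated together only weakly (mean correlation 0.136, lowest 0.0826). The mean correlation was 0.102 for other numbers of the same set of libraries and −0.122 between the sets. Whether the numbers pair the libraries was not tested. With the replicate block 13 members were called lower, among them *Dmc1* (adjusted p = 0.0275) and *Hsf2bp* (0.0294), 8 were higher and 1 lower relative to germ cell genes, and 5 upstream regions were higher. Over all genes the numbers called lower and higher (698 and 885) were 1337 and 1489 with the block and ranged from 366 to 2360 and from 516 to 2361 over all alternatives. With the set of libraries as a term 14 members were called lower, and relative to germ cell genes 9 higher and 2 lower. Over all genes that term gave 1669 lower and 1772 higher, and relative to germ cell genes 59 lower and 13762 higher.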
